A study of Mus musculus and Homo sapiens with 20 samples.

Results

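Promoters that carried an H2AK119ub peak in both Tet2 KO libraries and in neither WT library of haematopoietic stem and progenitor cells (HSPCs) are described here. The promoter window reached 1 kb up- and downstream of the start of each autosomal protein-coding gene, and it counted as touched when a peak overlapped it by at least 1 base. Of 20807 such promoters, 353 met the rule (1.7%), and they are called KO-gained promoters below. The rule used the HSPC H2AK119ub lists, so the H2AK119ub values of these promoters in HSPCs are a description and carry no test. The H3K27me3 lists of HSPCs and both sets of lists of mouse embryonic stem (mES) cells were not used by the rule.

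The lists came from CUT&Tag, in which an antibody guides a transposase to a chromatin mark and the DNA around it is cut and tagged. H2AK119ub and H3K27me3 were each profiled in 2 libraries per genotype in HSPCs and in mES cells, 16 libraries in all. The HSPCs were lineage-negative, c-Kit-positive (LK) bone marrow cells, picked by magnetic beads from WT C57BL/6 mice or from Tet2-/- mice backcrossed to C57BL/6, of both sexes and aged 6 to 8 weeks. The mES cells were WT and Tet2 KO lines grown with LIF, CHIR99021 and PD0325901. K562 libraries of the same study were not analysed here. The LK gate holds stem cells together with committed progenitors, and the labels also mention a suspension culture of LK cells with mSCF, mIL-3, mTPO and mGM-CSF without saying which libraries came from it. The methods call the replicates biological. No source ties a library to a mouse or culture, so p-values measure only the spread between these libraries, which may be technical.

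H2AK119ub marks histone H2A with ubiquitin and is placed by Polycomb repressive complex 1. H3K27me3, a trimethylated lysine of histone H3, is placed by Polycomb repressive complex 2. Both marks are best known from CpG-rich promoters of genes that are silent in the cell at hand, such as regulators and receptors of other lineages, and the PR-DUB complex removes the ubiquitin. TET2 oxidises 5-methylcytosine, and the study asked whether its oxidation of the same base in RNA bears on H2AK119ub. In HSPCs the study reported a loss of H2AK119ub with Tet2 KO, which Mbd6 knockdown reversed. It scaled CUT&Tag signal to sequencing depth and to spike-in chromatin. The lists used here hold peak positions without signal, so counts of touched promoters do not measure the level of the mark and cannot test that loss.

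3 promoters are shown as sequence because each led the KO-gained set by 1 measure. Pmp22 had the widest KO peak, Esrrg the largest share of its window under KO peaks, and Epha5 lay farthest from any WT peak. All 3 had an H3K27me3 peak in every HSPC library, so promoters without H3K27me3 are not among them. Each stretch is the 250 bases just upstream of the gene start, outside the gene itself, read 5′ to 3′ on the strand of the gene from GRCm38 (mm10), with each CpG in capitals.
Pmp22 upstream, chr11:63128732-63128981, plus strand: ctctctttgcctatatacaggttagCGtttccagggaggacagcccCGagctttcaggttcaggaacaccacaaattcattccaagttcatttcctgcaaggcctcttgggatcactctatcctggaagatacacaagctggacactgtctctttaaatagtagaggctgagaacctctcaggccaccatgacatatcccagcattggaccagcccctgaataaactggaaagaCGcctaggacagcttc
Esrrg upstream, chr1:187608541-187608790, plus strand: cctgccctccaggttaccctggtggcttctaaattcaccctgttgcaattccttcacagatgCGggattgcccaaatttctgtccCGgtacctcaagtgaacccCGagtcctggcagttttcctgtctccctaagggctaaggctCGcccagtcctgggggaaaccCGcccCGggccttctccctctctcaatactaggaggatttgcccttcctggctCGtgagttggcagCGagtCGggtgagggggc
Epha5 upstream, chr5:84417383-84417632, minus strand: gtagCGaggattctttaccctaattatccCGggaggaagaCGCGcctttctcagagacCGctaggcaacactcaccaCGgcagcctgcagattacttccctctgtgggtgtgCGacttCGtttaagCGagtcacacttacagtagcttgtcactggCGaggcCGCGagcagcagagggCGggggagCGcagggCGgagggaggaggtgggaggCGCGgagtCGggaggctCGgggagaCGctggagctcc
The stretches held 3 CpG in Pmp22, 9 in Esrrg and 20 in Epha5. All 250 bases lay under a peak of both KO libraries in Pmp22 and Epha5, and of KO replicate 2 alone in Esrrg.

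The replicate spread of H2AK119ub in HSPCs sets how the count of 353 can be read. Over all autosomal promoters, 14680 and 13657 were touched in WT replicates 1 and 2, and 15009 and 15124 in the KO replicates. The groups separated. A two-sided exact permutation test of 2 against 2 has 6 assignments and a smallest p of 0.333, which was the p obtained (0.667 after Benjamini-Hochberg adjustment over 4 comparisons). WT replicate 2 stood apart from the other 3 libraries, with 112281 autosomal peaks against 127019 to 133629. The part of list length in the KO-gained set was not tested beyond the values given here. A further 1017 promoters had a peak in both KO libraries and in WT replicate 1 only, and 268 in both KO libraries and in WT replicate 2 only. Leaving out a library accordingly raised the count, to 1370 without WT replicate 1, 621 without WT replicate 2, 668 without KO replicate 1 and 582 without KO replicate 2. The mirror pattern, a WT peak in each replicate and no KO peak, was found at 71 promoters (0.341%). Its count was 192 without WT replicate 1, 297 without WT replicate 2, 192 without KO replicate 1 and 200 without KO replicate 2. Read depth is unknown for every library, because the lists give positions only. In these mixed cells, a larger share of cells with the mark and more of the mark per cell cannot be told apart.

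The KO peaks on these promoters were narrow. The widest KO peak on a promoter had a median of 637 bases in KO replicate 1 and 640 bases in KO replicate 2, against 2278.5 and 2264 bases at the 12806 promoters with a peak in all 4 HSPC libraries. A width of 501 bases, the commonest and in effect the lowest in the lists, was found at 143 (40.5%) and 142 (40.2%) of the KO-gained promoters, and at 2.07% and 1.85% of promoters with a peak in all 4. Some other patterns had narrow WT peaks too. At the 71 promoters of the mirror pattern the WT medians were 633 and 654 bases, with 45.1% and 42.3% at 501. At the 1017 promoters with a peak in both KO libraries and WT replicate 1 only, the WT median was 781 bases, with 27.1% at 501. At the 268 with a peak in both KO libraries and WT replicate 2 only, it was 628.5 bases, with 47.4% at 501. Peaks of at least 1 kb were present at 87 and 86 KO-gained promoters, and in both replicates at 36. The set depends on these narrow peaks. With H2AK119ub peaks of at least 1 kb alone, 632 promoters met the rule and 36 of them were among the 353.

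**Figure D1:**
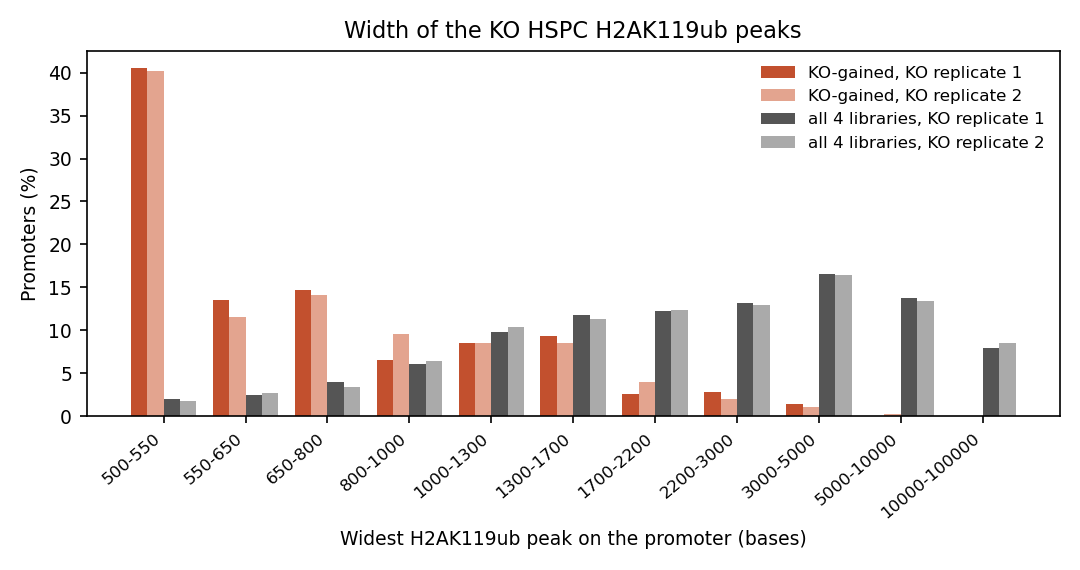
Percent of promoters (vertical axis) by the width in bases of the widest HSPC H2AK119ub peak on them (horizontal axis, bins of unequal width), for 353 KO-gained promoters and 12806 promoters with a peak in all 4 libraries, in each KO replicate. The narrowest bin holds 40.5% and 40.2% of KO-gained promoters, and most promoters with a peak in all 4 libraries lie above 1000 bases.

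At 315 of 353 promoters (89.2%) the KO peaks overlapped each other inside the window, against 99.5% of promoters with a peak in all 4 libraries. The rule already asks for both KO peaks in the window. At 318 both KO overlaps were at least 250 bases. The median share of the window under KO peaks was 31.8%, and no window was fully covered in both replicates. Both KO peaks covered the first base of the gene at 140 promoters (39.7%), against 88.6% of promoters with a peak in all 4 libraries. On average 43.8% and 42.8% of the first 1 kb inside the gene and 26.7% and 26.8% of the 1 kb upstream were under a KO peak, so the peaks leaned into the gene. KO peaks at promoters with a peak in all 4 libraries leaned the same way, with 80.7% and 81.1% inside and 68.6% and 68.3% upstream. Between 1 and 3 kb from the start of the KO-gained genes, WT libraries covered 7.09% and 4.99% and KO libraries 10.5% and 11.3%. Beyond 5 kb the shares were 7.65% and 5.30% for WT replicates 1 and 2 and 7.35% and 8.03% for the KO replicates, the lowest being WT replicate 2.

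WT peaks were close to many of these windows. The nearest WT peak lay a median of 3245 bases outside the window, and at 104 promoters (29.5%) within 1 kb. Among the 10 promoters with the widest KO peaks, it was 6 bases away at Erbb4, 55 at Pmp22 and 86 at Gm29666. It was 236 bases away at Esrrg, 259 at Klk4, 509 at Pdcd1 and 533 at Ddit4l. For the others of these 10 it was 1695 bases at Bdnf, 1719 at Ninj2 and 1362676 at Epha5. At the other end, 111 promoters (31.4%) had no WT peak within 10 kb and 34 (9.63%) none within 100 kb. With the 104 left out, 249 KO-gained promoters and 38 of the mirror pattern had no peak of the other genotype within 1 kb. The promoters just inside the rule were Rfx8, with 1002 and 2 bases under the KO replicates, Pld5 with 790 and 9 bases, and Nfyc with 20 and 501 bases. Just outside it were Olfr522 and Pon3, kept out by 8 and 12 bases under WT replicate 1, and Cdhr1, kept out by 15 bases under WT replicate 2.

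**Figure D2:**
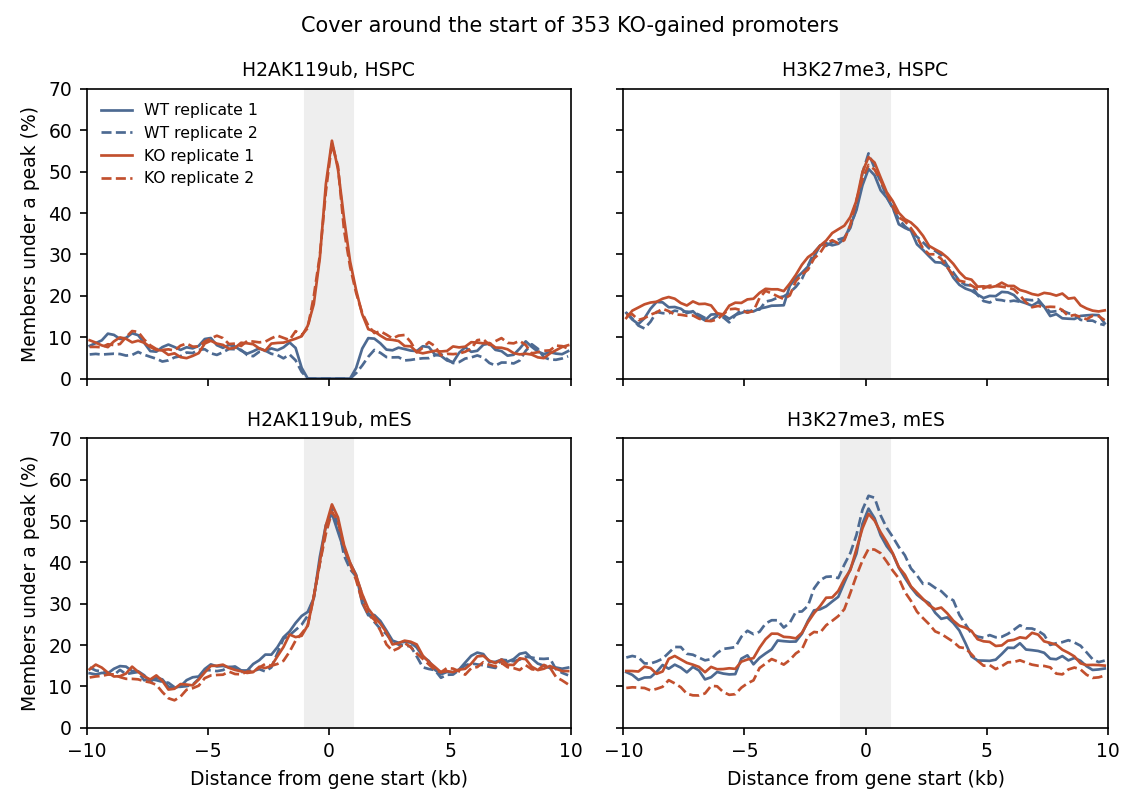
Percent of the 353 KO-gained promoters under a peak (vertical axis) by distance from the gene start in kb, upstream negative (horizontal axis, means over 250 bases), for each of 16 libraries, with the promoter window in grey. The WT lines of HSPC H2AK119ub are at 0 in the window because the rule requires it and the KO lines reach 57.5% and 56.9%, while the H3K27me3 and mES lines of both genotypes rise over the same start.

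H3K27me3 in HSPCs, which the rule did not use, covered many of these promoters in both genotypes alike. Of the 353, 206 and 217 had an H3K27me3 peak in the WT replicates and 212 and 206 in the KO replicates, so the genotypes overlapped. These were 58.4% to 61.5% of the set, near the 60.5% to 62.7% of all autosomal promoters and below the 82.2% to 85.1% of promoters with H2AK119ub in all 4 HSPC libraries. By pattern, 178 had an H3K27me3 peak in all 4 libraries (50.4%), 100 in none (28.3%) and 63 in a mixture (17.8%). These shares were near the 51.4%, 28.5% and 17.6% of all autosomal promoters. The share of the window under H3K27me3 was higher on average in KO at 84 promoters (23.8%), lower at 75 (21.2%) and equal at 194. Over all autosomal promoters it was higher in KO at 26.0% and lower at 29.6%.

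The H3K27me3 cover divided the set into 3 classes. In 88 promoters (24.9%) the whole window lay under H3K27me3 in all 4 HSPC libraries, against 14.4% of every autosomal promoter, 18.9% of promoters with an H2AK119ub peak in all 4 libraries and 0 of the 71 of the mirror pattern. The share was 26.3% at promoters with a peak in both KO libraries and WT replicate 1 only and 14.6% at those with WT replicate 2 only. A further 165 had a peak over part of the window or in some libraries, and 100 had none. No test was run on these shares, since the genes are not replicates. The classes differed in the H2AK119ub peak itself, with a median width, averaged over KO replicates, of 932 bases in the whole-window class, 646 in the partial class and 658 where H3K27me3 was absent. No WT H2AK119ub peak lay within 10 kb at 38 of the 88, 58 of the 165 and 15 of the 100. The genes of the whole-window class were long, with a median span of 71060 bases against 23078 in the partial class and 27257.5 without H3K27me3.

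The promoter with the widest KO peak, Pmp22, codes for a myelin protein of peripheral nerve. Its window was free of H2AK119ub peaks in both WT replicates and was covered over 67.3% and 83.6% in KO replicates 1 and 2, by peaks of 1347 and 7922 bases. H3K27me3 covered its whole window in every HSPC library and both marks did in every mES library. Thus only the WT HSPC H2AK119ub lists lacked a peak there among the 16 libraries.

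Esrrg, which codes for an orphan nuclear receptor related to the oestrogen receptors, had 0% and 0% in WT and 74.2% and 100% in KO, and its window was fully under the other mark and in mES cells in each library. Erbb4, a neuregulin receptor, had 0% and 0% in WT and 100% and 63.3% in KO. Kcnd2, a voltage-gated potassium channel, had 0% and 0% in WT and 86.3% and 82.4% in KO, with the nearest WT peak 326452 bases away. These 3 promoters lay wholly under H3K27me3 in all HSPC libraries of both genotypes. Bdnf, a neuronal growth factor, differed between the KO replicates, with 100% in KO replicate 1 and 39.2% in KO replicate 2.

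Epha5, a receptor for ephrins in axon guidance, stood farthest from WT peaks, at 1362676 bases. H2AK119ub covered 0% and 0% of its window in WT and 78.8% and 81.7% in KO. H3K27me3 was present in both genotypes, at 98.9% and 85.7% for WT and 88.9% and 84.2% for KO. The mES lists had H2AK119ub on 84.7% and 81.1% of it for WT and 91.6% and 89.9% for KO. The next farthest were Lurap1l, the kainate receptor gene Grik2, Tram1l1 and Gm10406, with gaps of 1270378, 792633, 735748 and 629561 bases, and all 4 had H3K27me3 in each HSPC library.

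Not every wide peak lay on an H3K27me3 promoter. Ninj2, an adhesion molecule of injured nerve, had 54.7% and 70.2% of its window under KO H2AK119ub and no H3K27me3 peak in any of the 8 libraries of that mark. Gm29666 had KO peaks of 3288 and 3611 bases that covered 21.2% and 30.6% of the window, and no peak in the 12 other libraries. Pdcd1, the gene of the T cell inhibitory receptor PD-1, had 9.80% and 69.3% in KO and a single H3K27me3 peak among the HSPC libraries, over 48.9% in WT replicate 2. Others did lie under it. Klk4, a serine protease of enamel, had 39.6% and 41.9% of its window under KO H2AK119ub, the rest of its wide peaks lying outside, and 100% under H3K27me3 in all 8 libraries of that mark. Adgra3, an adhesion G protein-coupled receptor, had 73.2% and 93.7% under KO H2AK119ub, and its HSPC H3K27me3 cover was 78.6%, 84.1%, 74.6% and 31.9% in WT 1, WT 2, KO 1 and KO 2. Ddit4l had 17.5% and 13.6%, with HSPC H3K27me3 at 36.8%, 23.5%, 22.1% and 0% in the same order.

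A grouping by gene role was made by hand after the values were seen and covers 126 of the 353, so its counts describe these groups only, and no difference between roles was tested. Among 27 genes of neuronal receptors, adhesion and the synapse, 16 lay wholly under H3K27me3 in HSPCs, 25 had an H3K27me3 peak in all 4 HSPC libraries, and 24 had one in all 4 mES libraries. Nlgn1, a synaptic adhesion protein, had 20.3% and 17.3% of its window under KO H2AK119ub and 100% under H3K27me3 in all 8 libraries of that mark. Grin2b, an NMDA receptor subunit, had 5.15% and 5.20%, among the smallest overlaps, and its window was wholly under H3K27me3 in HSPCs. Syt11 was an exception, with 25% and 25% in KO and no peak in the 12 other libraries. Of 8 ion channel genes, 5 were wholly under H3K27me3 in HSPCs and all 8 had an H3K27me3 peak in all 4 mES libraries. An H3K27me3 peak in all 4 mES libraries was present at 49.6% of the 353 and at 34.5% of all autosomal promoters.

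Developmental transcription regulators were 11, of which 9 lay wholly under H3K27me3. Irx6, an Iroquois homeobox gene, had 31.8% and 31.8% in KO, and its window was wholly covered in the other 12 libraries. Bcl11b, a T lineage transcription factor, had 25% and 25% in KO from a peak of 501 bases in each replicate, with a WT peak 314 bases outside the window, and H3K27me3 over the whole window in each HSPC library. Eya1 and Myf6 were the 2 not wholly covered, Eya1 having H3K27me3 over 25% of the window in 3 of the 4 HSPC libraries.

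Genes of interferon response and innate defence, 15 in all, included none that lay wholly under H3K27me3 in HSPCs, and 7 had no H3K27me3 peak there. The other 8 had one over part of the window or in some libraries, 3 of them in all 4 HSPC libraries. Ifit1 and Ifit1bl2, antiviral genes whose starts lie 128 bases apart, were covered over 31.5% and 26.4%, and 31.5% and 25%. They had no H3K27me3 in HSPCs and had it in all 4 mES libraries, over 20% to 100% of the Ifit1 window. Il1a, a cytokine gene, had 21.2% and 22.7% in KO, no H3K27me3 in HSPCs and 58.8%, 54.4%, 47.1% and 32.3% in mES WT 1, WT 2, KO 1 and KO 2. Ido1, a tryptophan-degrading enzyme, had 3.25% and 11.6% in KO with a WT peak 15 bases outside. Of 7 immune cell surface receptors, none was wholly under H3K27me3 and 5 had no peak of it. Cd180, Lair1 and Fcmr had 31.3% and 32.4%, 8.60% and 25%, and 5.70% and 7.75% in KO.

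Of 34 genes of widely used cell machinery, none lay wholly under H3K27me3 in HSPCs, 20 had no H3K27me3 peak there, and 32 had none in mES cells. Among all autosomal promoters, 28.5% had no H3K27me3 peak in HSPCs and 44.5% had none in mES cells. Psmd6, a proteasome subunit, had 0% and 0% in WT and 60.2% and 53.3% in KO, Ssb, the La RNA-binding protein, 25% and 62.0% in KO, and Thoc7, of the mRNA export complex THO, 10.1% and 83.1%. These 3 had no peak of either mark in any of the 12 other libraries. In mES cells 21 of the 34 had no H2AK119ub peak in any library and 4 had one in all 4, among them Pclaf, a partner of the replication clamp, with 32.2%, 32.9%, 32.2% and 31.8%. Keratin, matrix and contractile genes (13) and defensin, kallikrein and WFDC genes (11) were mixed, with 5 and 2 wholly under H3K27me3. Krt14, Krt17, Krt42 and Krt81 were the keratins and Col1a2, Col20a1 and Col8a1 the collagens.

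**Figure D3:**
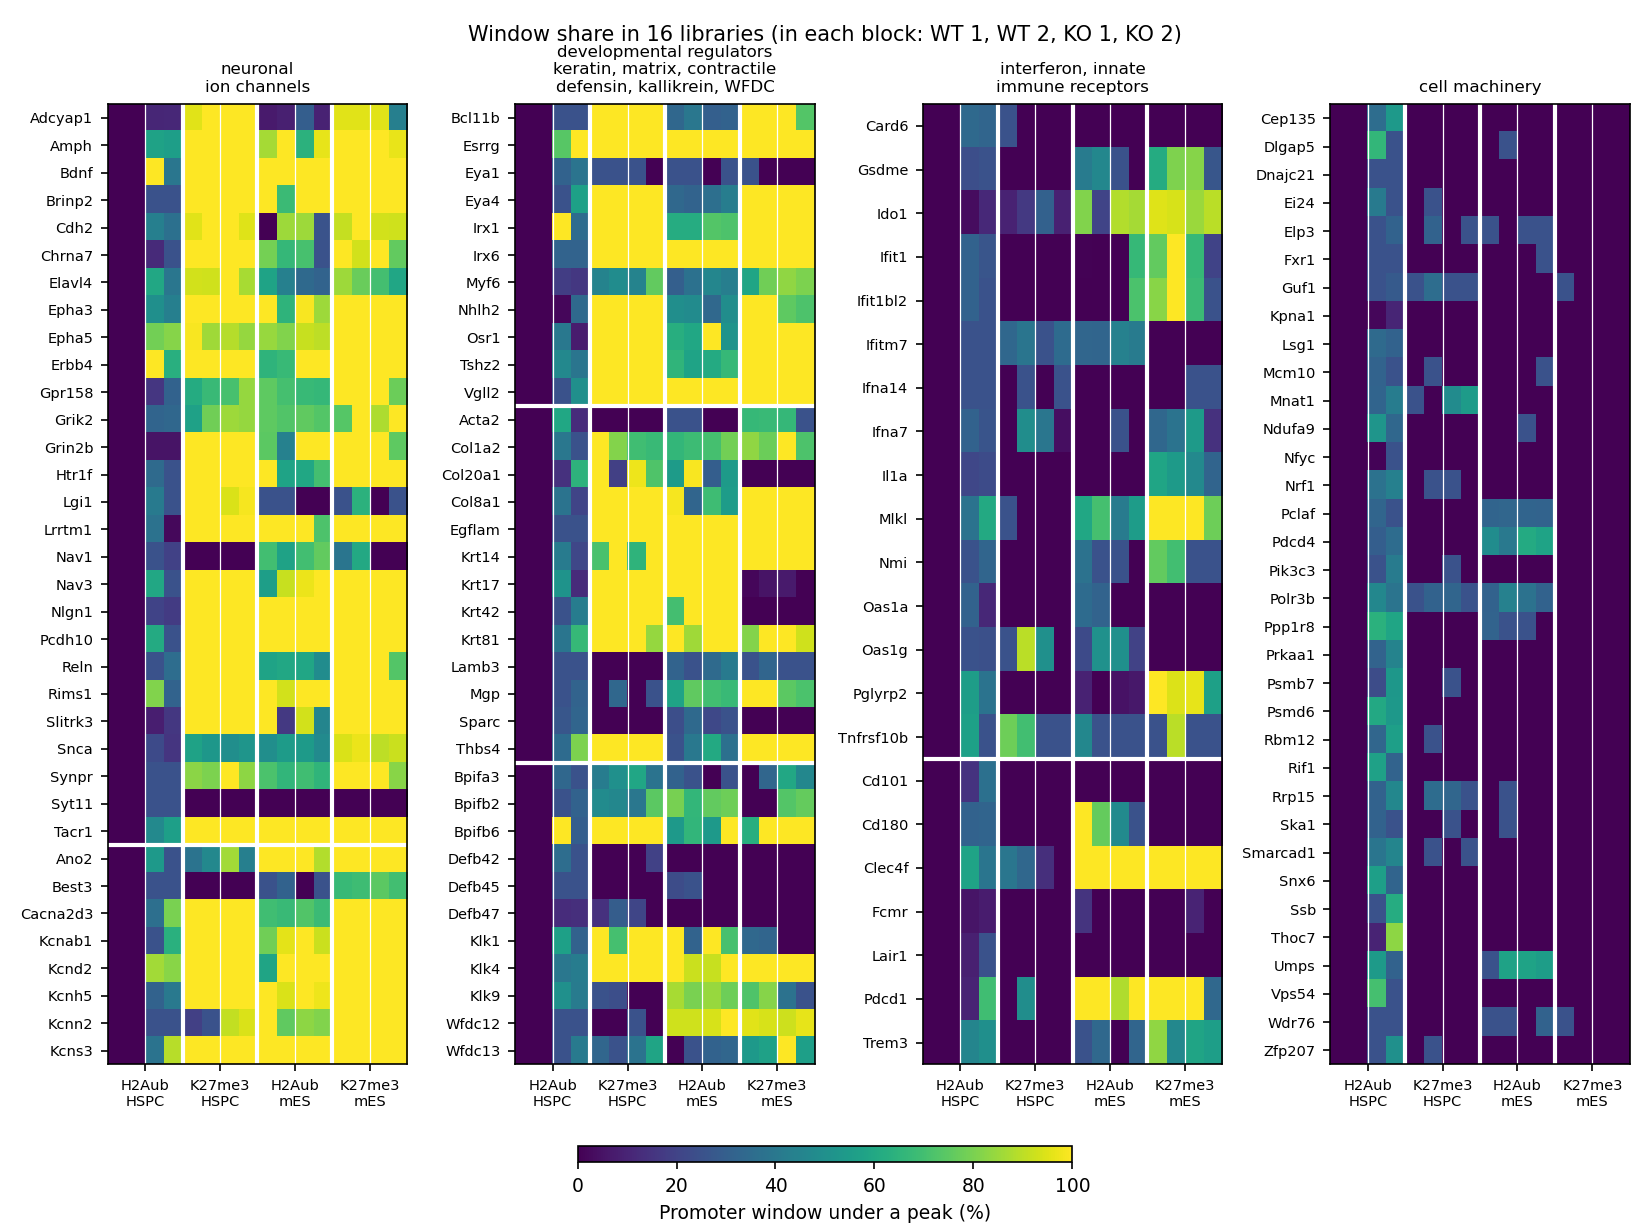
Share of the promoter window under a peak (colour, 0 to 100%) for the 126 KO-gained promoters grouped by role (rows, with symbols) in 16 libraries (columns, in blocks of WT 1, WT 2, KO 1 and KO 2 for each mark and cell type, H2Aub being H2AK119ub and K27me3 H3K27me3). The WT columns of the first block are 0 by the rule, neuronal, ion channel and developmental genes are mostly covered in the other 12 columns, and of the 34 cell machinery genes 32 have no peak in the mES H3K27me3 block.

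Well-known lists held few members. Of 11 gene lists written for this tissue and study, 9 had none and 2 had 1 each, Bcl11b among 47 haematopoietic transcription factors (2.13%) and Il1a among 61 genes of cytokines and their signalling (1.64%), near the 1.7% of all promoters. None of 40 developmental Polycomb targets was KO-gained, as 37 already had H2AK119ub in all 4 libraries and 3 in both KO libraries and WT replicate 1. The count was also 0 among 32 myeloid, 31 lymphoid, 30 erythroid and megakaryocytic, 43 Polycomb and H2A deubiquitinase, 19 TET, DNMT and RNA m5C, 47 leukaemia, 32 DNA repair and 33 widely expressed promoters. Of the families matched by symbol, keratins had 4 of 53 (7.55%), collagens 3 of 43 (6.98%), potassium channels 5 of 91 (5.49%), protocadherins 3 of 67 (4.48%), coiled-coil domain genes 5 of 136 (3.68%), orphan G protein-coupled receptors 2 of 64 (3.12%), zinc finger genes 9 of 385 (2.34%), solute carriers 6 of 358 (1.68%), transmembrane proteins 2 of 235 (0.851%) and olfactory receptors 3 of 1128 (0.266%). None was found among 95 ribosomal proteins, 78 mitochondrial ribosomal proteins, 329 vomeronasal receptors and 67 replication-dependent histones. By chromosome the share ran from 0.939% on chromosome 7 to 2.52% on chromosome 6. Windows of 9 pairs overlapped, so the 353 are not all separate regions.

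A change of both marks at the same promoter was rare. HSPC H3K27me3 was itself present in both KO and neither WT library at 6 of the 353 (1.70%), against 1.2% of all promoters, and the reverse held at 6 (1.70%), against 1.3%. The clearest was 4931406P16Rik, a gene known by its cDNA name, where H3K27me3 covered 0% and 0% of the window in WT and 98.9% and 96.3% in KO, and H2AK119ub 0% and 0% in WT and 68.6% and 32.1% in KO. It had no peak in any mES library. Ptchd4, a patched-domain protein, had no H3K27me3 in WT (0% and 0%) and 87.2% and 88.5% in KO, with H2AK119ub over 25% and 18.1%. Both exceed the cover of the other 4, Echdc1, Pter, Cdk14 and Gadl1, where H3K27me3 ran from 9.90% to 31.9% in KO.

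In the opposite direction, Zfp709, a zinc finger gene, gained H2AK119ub peaks over 36.4% and 31.6% and had H3K27me3 over 41.3% and 25% in WT and none in KO. Snx9, of endocytosis, had 25% in both KO replicates for H2AK119ub and 25% in both WT replicates for H3K27me3, each being a stretch of 501 bases. The remaining 4 were 9330182O14Rik, Gm11273, Klk9 and Ermap, the gene of an erythroid membrane protein, whose WT H3K27me3 cover ran from 0.450% to 31.8%.

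In mES cells, H2AK119ub touched at most 70.5% of the KO-gained promoters in a library, near the 69.2% to 70.3% of all promoters. An mES H2AK119ub peak was present at 249 and 247 of the 353 in WT and at 247 and 249 in KO, and over all promoters at 14391 and 14579 in WT and 14619 and 14412 in KO (p = 0.667 by the exact permutation test, 0.889 adjusted). By pattern 205 had it in all 4 mES libraries (58.1%) and 67 in none (19.0%), against 61.8% and 23.3% of all promoters. The HSPC pattern was shared by 5 (1.42%), against 0.99% of all promoters, and the reverse was found at 7 (1.98%), against 0.88%. The 5 were Gm10406, Aox4, 9330182L06Rik, Neb and Gja10. Gm10406 had 70.2% and 60.1% in KO HSPCs and 82.3% and 83.1% in KO mES cells, and no H2AK119ub in the WT libraries of either. Aox4, an aldehyde oxidase, had 49.7% and 25% in KO HSPCs and 54.8% and 71.5% in KO mES cells, and Neb, the giant thin-filament protein of muscle, 31.4% and 40.5%, and 31.6% and 32.5%.

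The share with mES H3K27me3 was above that of all promoters, a difference not tested and not particular to the KO-gained set. It touched 60.3% and 62.3% of the 353 in WT and 57.2% and 52.7% in KO, against 48.4% and 50.9% in WT and 42.1% and 37.6% in KO of all promoters. Promoters with HSPC H2AK119ub in all 4 libraries had 59.7% and 62.0% in WT and 48.2% and 44.0% in KO, so the WT shares were alike and the KO shares lower there. The lists of KO mES cells were shorter on promoters overall (10078 and 10586 in WT, 8753 and 7816 in KO, exact permutation p = 0.333, adjusted p = 0.667), and the KO-gained promoters shared this direction, with 213 and 220 in WT and 202 and 186 in KO. Among them 13 had mES H3K27me3 in each WT library but no KO library (3.68%), against 5.87% of all promoters, and 2 the reverse (0.567%), against 0.457%. Promoters with HSPC H2AK119ub in both KO libraries and WT replicate 1 only had a similarly raised share. There mES H3K27me3 touched between 51.0% (mES KO 2) and 60.5% (mES WT 2). With WT replicate 2 only, the range was 38.4% (mES KO 2) to 48.5% (mES WT 2), near that of all promoters.

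**Figure D4:**
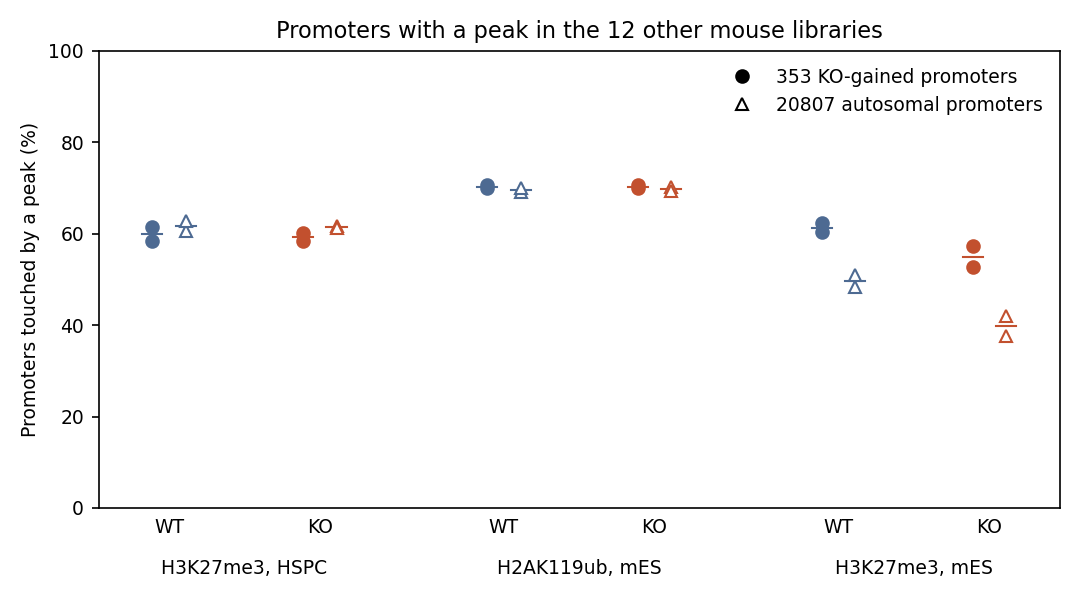
Percent of promoters touched by a peak (vertical axis) in the 12 libraries that the rule did not use, by mark and cell type, for the 353 KO-gained promoters (filled circles) and all 20807 autosomal promoters (open triangles), with a bar at the mean of each pair of replicates. The 2 sets lie close together for HSPC H3K27me3 and mES H2AK119ub, and the KO-gained promoters lie higher for mES H3K27me3, at 52.7% to 62.3% against 37.6% to 50.9%.

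Within the KO-gained set, the HSPC and mES states went together. In the whole-window class 85 of 88 had mES H2AK119ub in all 4 libraries and 76 had mES H3K27me3 in all 4. Without H3K27me3 in HSPCs, 24 of 100 had mES H2AK119ub in all 4 libraries, 39 in none, and 66 had no mES H3K27me3. Of the whole 353, 49.6% had mES H3K27me3 in all 4 libraries and 34.3% in none, against 34.5% and 44.5% of all promoters. The mES state of all promoters was not split by these classes, so the link cannot be called particular to this set. At the ends of this range, 128 of the 353 (36.3%) had a peak in all 12 other libraries, against 26.0% of all promoters and 34.6% of those with HSPC H2AK119ub in all 4, and 37 (10.5%) had none in any of the 12, against 17.6% and 0.625%. As a check of the labelled cell types, 10 mES marker promoters had an H3K27me3 peak at 8 in each HSPC library and at 1 to 4 in mES libraries, while 10 HSPC marker promoters had one at 6 to 7 in both cell types, so touch by a peak does not separate the latter. For H2AK119ub, the mES markers had a peak at 9 to 10 in mES and 6 to 8 in HSPC libraries, and the HSPC markers at 8 in mES and 8 to 9 in HSPC libraries. Of 6 markers of mature lymphoid cells, which the sort depletes, 2 to 3 had an H3K27me3 peak in the libraries of both cell types. H2AK119ub touched 2 to 5 of these in HSPC and 3 to 4 in mES libraries, so this list did not separate the cell types either.

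Sequence composition placed the KO-gained promoters between promoters with and without H2AK119ub. The median ratio of observed to expected CpG in the window was 0.419, against 0.606 where all 4 HSPC libraries had a peak, 0.145 where none had and 0.225 at the mirror pattern. For every promoter it was 0.486. Promoters with a peak in both KO libraries and 1 WT replicate had a similar ratio, 0.461 with WT replicate 1 and 0.426 with WT replicate 2. The place between was therefore not particular to the KO-gained set. GC content had a median of 49.1%, against 51.4% for every promoter. CpG-rich windows, with a ratio of at least 0.6 and GC of at least 50%, were 70 of 353 (19.8%), against 30.8% of all promoters. With a peak in both KO libraries and only WT replicate 1 or only WT replicate 2, they were 20.2% and 25.4%. By class the median ratio was 0.554 in the whole-window class, 0.366 in the partial class and 0.335 without H3K27me3, where every promoter without H3K27me3 had 0.170. CpG-rich windows were 33.0%, 13.3% and 19.0% in these classes, against 44.5%, 40.3% and 4.76% of every promoter of the class. The 100 without H3K27me3 thus held 19 CpG-rich windows. Cell machinery genes had a median ratio of 0.631 (0.0658 to 0.992) and immune cell surface receptors 0.193 (0.134 to 0.254). Of these hand-made groups, 14 of the 34 and 2 of the 7 were in the partial class.

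**Figure D5:**
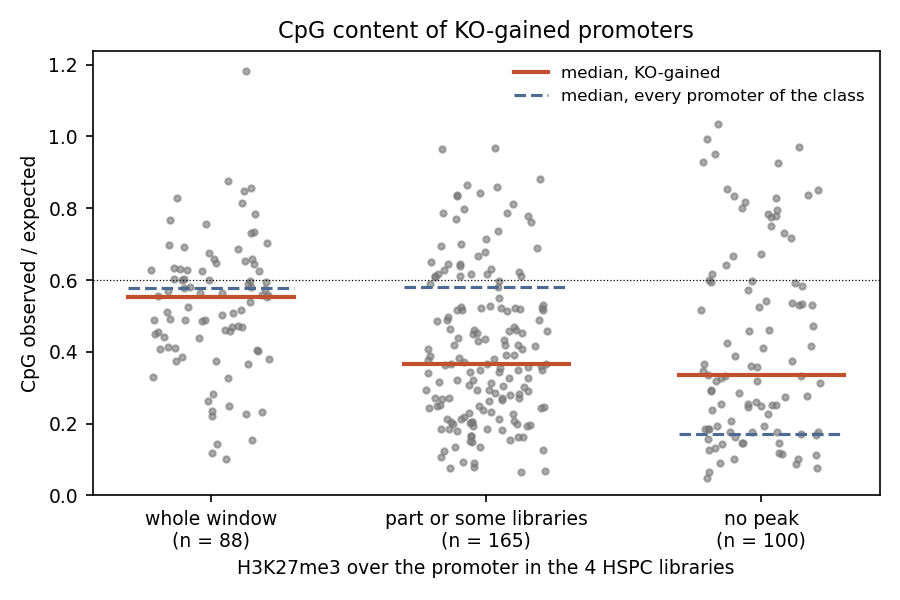
Ratio of observed to expected CpG (vertical axis) of each of the 353 KO-gained promoters (grey points, spread sideways at random) by H3K27me3 cover in HSPCs (horizontal axis), with the median of the class (solid bar), the median of every autosomal promoter of that class (dashed bar) and the ratio of 0.6 (dotted line). Medians are 0.554, 0.366 and 0.335 against 0.579, 0.579 and 0.170.

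Short motifs were searched on both strands of the windows, as a description of letters and not of binding. The GATA-type motif AGATAA was found in 60.9% of KO-gained windows against 57.5% of all. For TGTGGT, the core bound by RUNX factors, the shares were 73.9% and 70.4%. For CGGAAG, the core of ETS factors, they were 41.9% and 48.9%. For TTGCGCA, of the C/EBP type, they were 7.93% and 7.05%, and for the TATA-box letters TATAAA they were 65.2% and 59.5%. Another protein-coding gene started within 1 kb on the other strand at 14 promoters (3.97%), against 11.2% of all.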

How the data were processed

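CUT&Tag peak lists of 16 mouse libraries were used as the authors deposited them, one list per library. Each line gives the chromosome, start and end of a peak (unit: positions, with no count, coverage, score or p-value from the authors). Reads had been trimmed (Trimmomatic 0.39), mapped to mm10 together with Drosophila spike-in DNA (Bowtie2 2.4.1) and cleared of duplicates, per the labels and methods. The methods name broad calling with MACS2 and the labels HOMER 4.9. Which of them made these lists is not stated, and the lowest width of 501 bases may depend on it. Spike-in scaling does not enter a list of positions. Because a list holds no counts, depth and counting error are unknown, and no interval or floor could be given.

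Gene starts came from GENCODE on GRCm38, the build of the lists, and sequence from the GRCm38 RefSeq assembly. All peak ends lay within its chromosome lengths. Groups came from the labels. Overlaps were computed with pandas 2.3.3 and numpy 2.4.6 under Python 3.11.15, were checked against bedtools 2.31.1 and the rule was tested on simulated data, and figures were drawn with matplotlib 3.10.9. Counts of touched promoters were compared by two-sided exact permutation tests over 6 assignments, adjusted over 4 comparisons. Named promoters were those in the gene lists, the 10 with the widest KO peak, the 5 with the largest covered share, up to 10 each that also gained or lost HSPC H3K27me3 or mES H2AK119ub, 3 just inside and 3 just outside the rule, and the 5 farthest from a WT peak. The sequence of a further promoter is not reported here. Role groups and their examples were chosen after the values were seen. The members, lists and tests were chosen with earlier results of these data known. Alternatives were other windows, overlaps, peak widths, list lengths and transcript starts, leaving out each replicate, a replicate block and, added after the data were seen, no WT peak within 1 kb and crossed replicate numbers.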

Additional observations from a re-analysis of the deposited data

Results flagged for a closer look

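At 7 promoters H2AK119ub went opposite ways in HSPCs and mES cells, with a peak in both KO and neither WT library of HSPCs and in both WT and neither KO library of mES cells. The difference between the cell types was not tested, and the HSPC direction was fixed by the rule. In mES cells the mean share of the window under H2AK119ub, KO minus WT, was -33.5 percentage points at Oas1a, which codes for a sensor of double-stranded RNA. It was -28.4 at Rab27b, a GTPase of vesicle traffic, -25.0 at Acta2, the actin of smooth muscle, -25.0 at Pde1a, a calcium-dependent phosphodiesterase, and -25.0 at Lgi1, a secreted synaptic protein. At Defb45, a beta-defensin, it was -24.2 and at Adamts6, a matrix metalloprotease, -21.3. The WT cover in mES cells was 19.9% to 35.1% of the window at these 7, where a peak of 501 bases, the commonest width, makes 25%. Over all promoters, 0.88% had this mES pattern.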

How the results depend on the processing

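The number of KO-gained promoters was 406 and 301 with windows of 500 bases and 2 kb on each side, 385 with at least 250 bases of overlap, 359 with lists of equal length, 330 with any protein-coding transcript start and 249 with no WT peak within 1 kb. It moved to 632 with H2AK119ub peaks of at least 1 kb, and to 582 to 1370 without 1 replicate, where the rule asks less by construction. For lists of equal length, each HSPC H2AK119ub list was cut to its first 112281 autosomal peaks in file order. The lists hold no score and this order is not stated to rank peaks, so that setting is no control for list length or depth. The cause of the shifts in the other values was not tested at any setting. The mean share of members with HSPC H3K27me3, 59.6% as reported, was 57.5% with 500 bases, 62.3% with 2 kb, 58.0% with at least 250 bases, 76.1% with peaks of at least 1 kb, 62.0% with any transcript start, 61.7% with no WT peak within 1 kb and 50.6% to 61.6% without 1 replicate. The mean share with mES H2AK119ub, 70.3% as reported, was 67.3%, 73.0%, 69.0%, 50.0%, 72.3% and 70.8% in the same order, 71.0% with lists of equal length and 62.6% to 76.4% without 1 replicate. The share with mES H3K27me3 was 58.1% as reported. It moved beyond the spread of the libraries only without WT replicate 2 (52.0%) or without KO replicate 1 (53.0%). Without 1 replicate it ran from 52.0% to 56.9%. The median KO peak width, 693.5 bases as the mean of the replicates, was 870.25, 661.5, 751.5, 1615.5, 681.25 and 656.5 bases in the same order, 746.5 with lists of equal length and 563.5 to 914.25 without 1 replicate, against a spread between KO replicates of a few bases.

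Over all promoters, the difference of HSPC H2AK119ub (898) and of mES H3K27me3 (-2047.5) kept its direction in every alternative run, at 386.5 to 1409.5 and -2516 to -1579 without 1 replicate. The difference of HSPC H3K27me3 (-24.5) reversed to 9 with windows of 500 bases and ran from -250 to 201 without 1 replicate, and that of mES H2AK119ub (30.5) ran from -73 to 134. The rule does not depend on pairing, so the replicate block, in which same-numbered libraries were paired, gives 353 promoters by construction. It gave p = 0.5 for HSPC H2AK119ub and mES H3K27me3 in an exact sign-flip test, the smallest that 2 pairs allow. The numbers are not stated to mark a shared mouse or day, and same-numbered deviations correlated between -0.134 and 0.0314 across promoters. For mES H3K27me3, the counts of 95 promoters in KO alone and 1222 in WT alone are the same by construction under crossed numbers.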
